A study of Mus musculus with 16 samples.

Results

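The genes described here are 37 genes of the interferon response and of antigen presentation, listed by symbol and grouped by role into sensors of viral RNA, transcription factors and regulators, antiviral effectors, subunits of the immunoproteasome, and the peptide transport and MHC class I genes. They were matched to array probes through the RefSeq accessions in the files, with 1 probe per gene, the one with the highest mean signal. Of the 37 genes, 35 had a probe among the 31758 genes that could be told apart by symbol or accession, and 32 of these passed a filter on dim signal (well above background on all 4 arrays of a label), as 17771 genes did in all. The RNA was from HL-1, an immortal line of mouse atrial cardiomyocytes, treated for 6 h with vehicle (PBS), 100 nM of the synthetic glucocorticoid dexamethasone (Dex), 10 nM of the estrogen estradiol (E2) or both agents together (Dex+E2). All groups are cultures of this 1 line, labelled female and grown in Claycomb medium, and each label had 4 arrays from 4 independent experiments. The title of the series poses the question of antagonism between the 2 hormones in heart muscle cells.

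Interferons are secreted proteins that put cells into an antiviral state. Sensors such as RIG-I and MDA5 detect viral RNA and switch on type I interferon genes, and the interferon receptor then acts through JAK kinases on a factor that includes Stat2 and Irf9 and binds the interferon-stimulated response element (ISRE). Interferon gamma acts through the gamma-activated site (GAS) and through Irf1 and Nlrc5 on the immunoproteasome, the peptide transporter and MHC class I. Many cells keep a low level of these transcripts without infection, and glucocorticoids are known to restrain many inflammatory genes through their receptor.

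The promoter windows of these genes are shown first, searched for the letters of the ISRE and GAS, which only part of them held. RefSeq windows of assembly GRCm38.p6, running from 250 bases before to 50 bases after each gene start, were found for 30 of the 37 genes. Nlrc5, Usp18, Parp9, Parp14, Rtp4, Trim14 and Tap2 were without one. The ISRE was searched on both strands as GAAA repeated after any 2 bases and the GAS as TTCNNNGAA, which reads the same on both strands. An ISRE match lay in the windows of 12 of the 30 genes (40.0%) and of 1079 of all 27025 genes with a window (3.99%). A GAS match lay in 7 of the 30 (23.3%) and in 9.55% of all genes. The letters of a full glucocorticoid response element, GNACA and TGTNC with any 3 bases between them on either strand, were in 0 of the 30 windows and in 0.537% of all. The 60-base stretches that follow, written 5′ to 3′ along the gene's strand, come from the 8 tested genes with an ISRE match before the start, then from Irf1 and Psmb8 with a GAS match. Capitals mark the matched letters, and TTTC in an ISRE is GAAA on the opposite strand.
Isg15: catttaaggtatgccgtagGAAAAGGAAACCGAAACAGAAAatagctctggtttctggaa
Ifit1: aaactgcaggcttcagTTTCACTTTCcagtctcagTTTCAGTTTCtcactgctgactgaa
Ifit3: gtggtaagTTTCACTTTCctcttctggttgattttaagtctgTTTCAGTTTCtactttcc
Gbp2: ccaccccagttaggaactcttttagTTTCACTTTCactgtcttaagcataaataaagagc
Gbp3: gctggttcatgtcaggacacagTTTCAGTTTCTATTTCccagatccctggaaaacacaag
Bst2: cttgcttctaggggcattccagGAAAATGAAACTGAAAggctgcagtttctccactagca
Stat2: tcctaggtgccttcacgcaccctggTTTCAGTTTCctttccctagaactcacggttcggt
B2m: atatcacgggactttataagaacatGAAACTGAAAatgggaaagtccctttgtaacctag
Irf1: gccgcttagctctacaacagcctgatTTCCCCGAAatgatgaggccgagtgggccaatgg
Psmb8: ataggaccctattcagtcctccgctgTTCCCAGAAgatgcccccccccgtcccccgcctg
The Isg15 stretch (chr4:156200856-156200915, minus strand) holds 3 overlapping ISRE matches, and those of Bst2 (chr8:71537565-71537624, minus strand) and Gbp3 (chr3:142559977-142560036, plus strand) hold 2 overlapping ones. In Bst2 a GAS match also overlaps the ISRE. Ifit1 (chr19:34640769-34640828, plus strand) and Ifit3 (chr19:34583365-34583424, plus strand) hold 2 separate matches each, and Gbp2 (chr3:142620579-142620638, plus strand), Stat2 (chr10:128270251-128270310, plus strand) and B2m (chr2:122147523-122147582, plus strand) hold 1. The GAS stretches lie at chr11:53769898-53769957 for Irf1 and chr17:34198072-34198131 for Psmb8, both on the plus strand. A match describes these letters only and is not a measured binding site.

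Before the results, the arrays were checked against their labels. Levels are log2 signals relative to the 75th percentile of each array, and an array had 58.6% to 65.6% of its probes well above background. Per1, a clock gene and well-known glucocorticoid target, was at -0.96, -0.75, -1.11 and 1.75 on those labelled vehicle, 1.91, 1.81, -1.15 and 1.995 on those labelled Dex, -0.86, -0.999, -1.29 and 1.95 on those labelled E2, and 1.86, 1.82, -1.11 and 1.95 on those labelled Dex+E2, each in the order of arrays 1 to 4. Vehicle 4 and E2 4 were thus among the high arrays and Dex 3 and Dex+E2 3 among the low ones, against their labels, so every comparison below speaks of labels and no direction is known to be that of a hormone. The 12 cardiomyocyte markers checked, among them Myh6, Tnnt2 and Nppa, were well above background on 16 of 16 arrays. Of 11 leukocyte and macrophage markers, 4 were well above background on 0 arrays, namely the pan-leukocyte gene Ptprc and the myeloid genes Adgre1, Itgam and Lyz2. The arrays lay on 4 slides of 4 arrays, each slide with 2 arrays of 2 labels, and the 2 labels of a slide differed in position as well, so these cannot be told apart there.

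Most of the pathway could be measured in these cells. Of the 32 genes that passed the filter, 27 were well above background on all 16 arrays and 0 were saturated, among them both sensors, Stat2, all 3 immunoproteasome subunits, Tap1, Tap2, B2m and H2-K1. Ifit1 was well above background on 9 arrays, Rtp4 on 8, Trim14 on 10 and Nlrc5 on 15, and Ifit2 on 15 with a flagged spot left out on Dex+E2 3. Ifit1 and Rtp4 passed through the vehicle label alone and Trim14 through the E2 label alone. The other 3 matched genes, all antiviral, did not pass: Ifi44 was well above background on 3 arrays, Rsad2, which encodes viperin, on 1 and Cmpk2 on 0. No probe was matched to Dtx3l or H2-D1. H2-K1 belongs to a family of near-identical class I genes, so its probe may also detect relatives. In bulk RNA, fewer cells with a transcript and less transcript per cell cannot be told apart.

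The first question was whether the interferon-response genes differ between the arrays labelled Dex and those labelled vehicle. The differences of 25 of the 32 genes were negative and 7 positive, with a median of -0.10 against -0.027 for all 17771 genes tested. Ifit1 and Rtp4, negative in every comparison with vehicle, passed the filter through the vehicle label alone, which favours that sign. Among the genes described that were well above background on all 16 arrays the median was also -0.10. The genes with the smallest unadjusted p were Ifi35, which was higher, and Ifit1, which was lower. None of the 32 was called by limma (adjusted p under 0.05), as 0 of all genes were called (0%), and 8 of the 32 had an unadjusted p under 0.05 where 10.9% of all genes did. With slide as a block 26 of the 32 differences were negative, with a median of -0.15. There 6 of the 32 had an unadjusted p under 0.05 (9.85% of all genes). With array number as a block (the replicate block) 10 of the 32 did (14.3% of all genes).

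**Figure D1:**
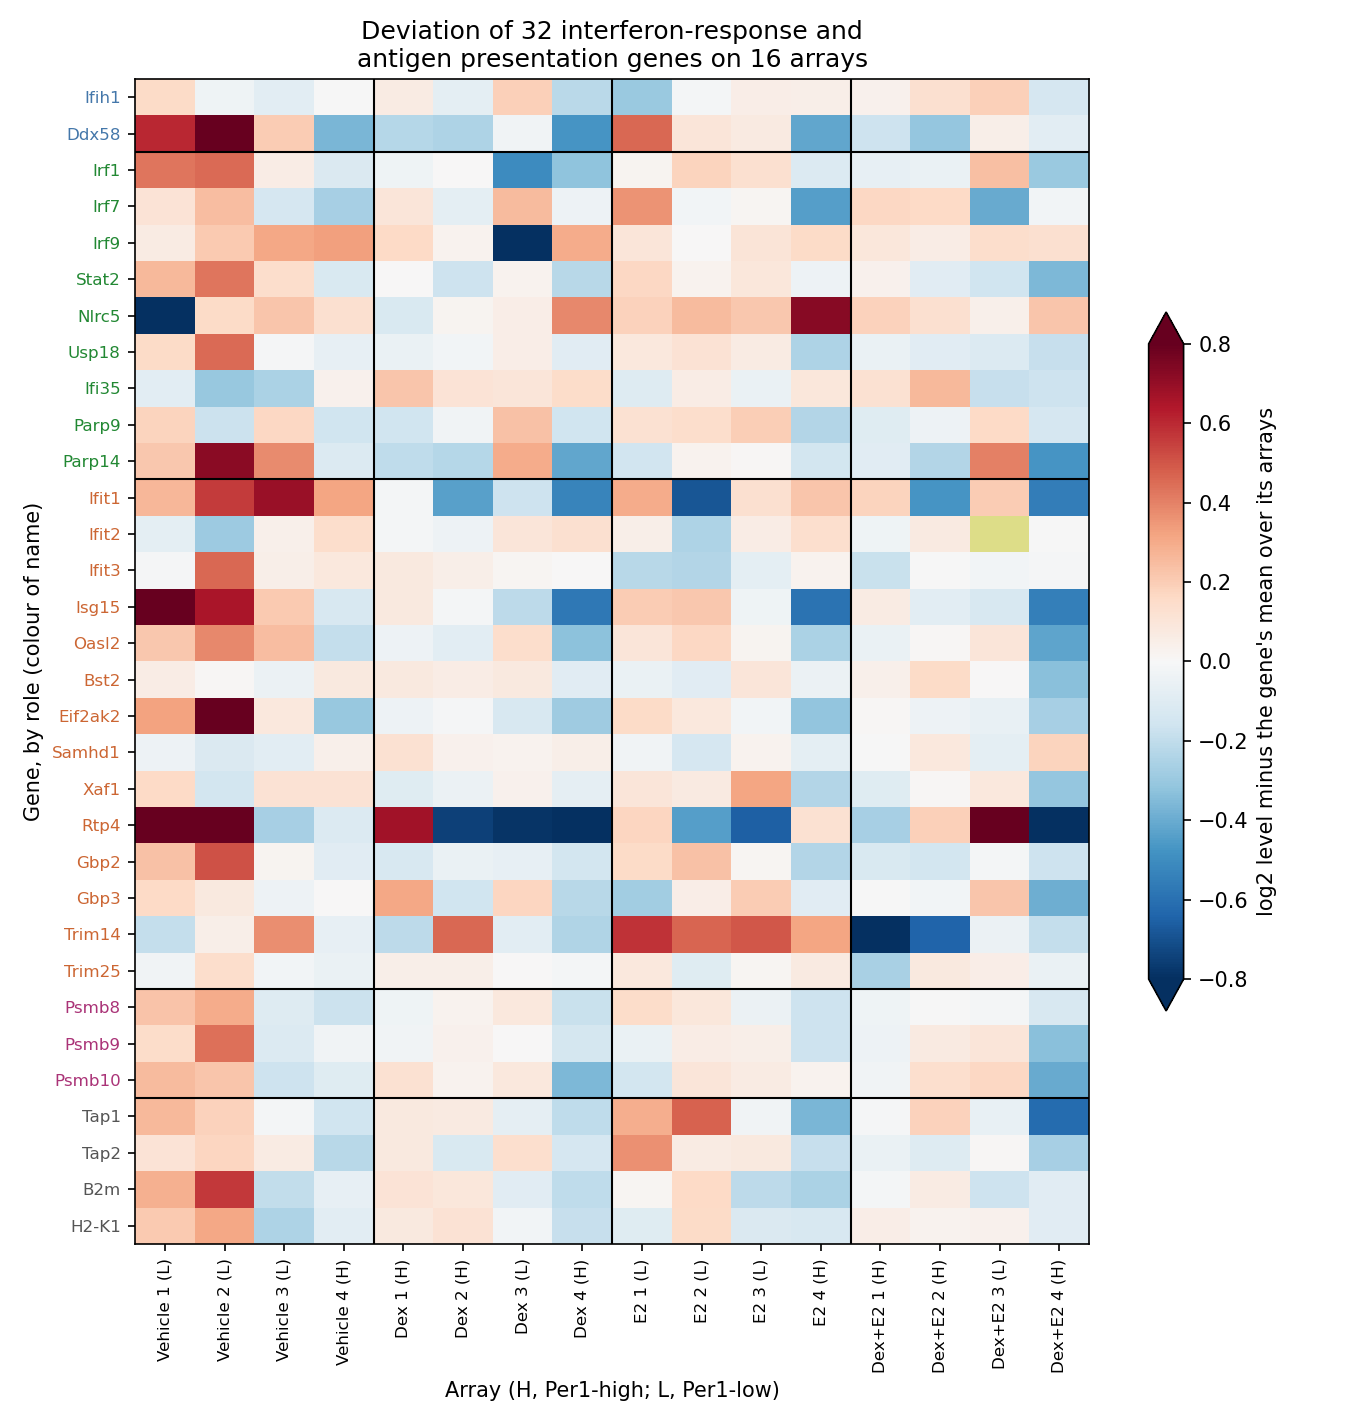
Each cell is a gene's log2 level on an array minus its mean over the arrays, for 32 genes ordered by role and 16 arrays ordered by label, with H and L marking Per1-high and Per1-low arrays; the scale ends at 0.8 in both directions and the flagged Ifit2 spot is yellow. Vehicle 1 and 2 show the most genes above their mean (25 and 26 of 32), and Dex+E2 4 and Dex 4 the fewest (3 and 6).

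Among the regulators, Ifi35, an interferon-induced protein that binds Nmi, was at 1.09, 0.87, 0.92 and 1.21 on those labelled vehicle, 1.397, 1.28, 1.27 and 1.32 on those labelled Dex, 1.07, 1.24, 1.12 and 1.27 on those labelled E2, and 1.297, 1.43, 0.99 and 1.01 on those labelled Dex+E2. All 4 arrays labelled Dex lay above all 4 labelled vehicle. The means were 1.32 ± 0.057 (SD, n = 4) and 1.02 ± 0.15 (SD, n = 4), a difference of 0.295 ± 0.101 (SE) with a limma adjusted p = 0.451.

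Ifit1, which binds viral RNA that lacks a host cap, was at -5.98, -5.69, -5.56 and -5.93 on those labelled vehicle, -6.26, -6.68, -6.41 and -6.78 on those labelled Dex, -5.95, -6.93, -6.12 and -6.03 on those labelled E2, and -6.07, -6.71, -6.04 and -6.8 on those labelled Dex+E2. It was lower on every array labelled Dex than on any labelled vehicle, by -0.74 ± 0.26 (SE) (limma adjusted p = 0.451). It was well above background on only 1 of the 4 arrays labelled Dex and 4 of those labelled vehicle, and it passed the filter through the vehicle label alone, so the choice of genes favours this separation and it is given as a description. Its promoter holds 2 of the ISRE matches shown above.

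The sensors are represented by Ddx58, which encodes RIG-I, and Ifih1, which encodes MDA5. Ddx58 was at -2.07, -1.83, -2.46 and -3.04 on those labelled vehicle, -2.89, -2.92, -2.698 and -3.14 on those labelled Dex, -2.21, -2.57, -2.596 and -3.09 on those labelled E2, and -2.83, -2.98, -2.62 and -2.75 on those labelled Dex+E2. Vehicle 1 and 2 were the highest arrays of all and Vehicle 4 lay among the lowest, so the groups overlap, and the difference of -0.56 ± 0.22 (SE) had a limma adjusted p = 0.451. Ifih1 differed by -0.016 ± 0.104 (SE) and stayed between 0.58 and 1.07 on all arrays.

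Isg15, a ubiquitin-like protein that is attached to other proteins in the antiviral state and whose promoter holds 3 overlapping ISRE matches, was at -2.41, -2.65, -3.09 and -3.43 on those labelled vehicle, -3.23, -3.32, -3.51 and -3.87 on those labelled Dex, -3.1, -3.08, -3.34 and -3.89 on those labelled E2, and -3.24, -3.39, -3.43 and -3.85 on those labelled Dex+E2. Again Vehicle 1 and 2 were the highest arrays, and array 4 was the lowest of its label in all 4 labels. The arrays labelled Dex differed from those labelled vehicle by -0.59 ± 0.24 (SE) (limma adjusted p = 0.451).

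Further genes with an unadjusted p under 0.05 were Irf1, a transcription factor induced by interferon gamma (-0.42 ± 0.15 (SE)), Stat2 (-0.26 ± 0.12 (SE)), the ADP-ribosyltransferase gene Parp14 (-0.44 ± 0.195 (SE)) and the guanylate-binding protein gene Gbp2 (-0.27 ± 0.12 (SE)). The 3 immunoproteasome genes and the 4 genes of peptide transport and MHC class I all had negative differences, from -0.17 to -0.043. The lowest and the highest difference belonged to dim genes, Rtp4 at -1.04 and Nlrc5 at 0.66, and the latter rests on 1 array, Vehicle 1 at -8.02.

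Vehicle 1 and 2, on slide 1, weigh heavily in this comparison. The median deviation of the 32 genes from their own means was 0.17 on Vehicle 1 and 0.27 on Vehicle 2, against -0.19 to 0.095 on the other 14 arrays. Without these 2 arrays the median difference was -0.017, with 17 genes negative and 15 positive. Within slide 1, which holds Vehicle 1 and 2 and Dex 1 and 2, 26 of 32 differences were negative (median -0.16), and 0 of the 32 genes were called where limma called 45 of 17719 genes (0.254%). There, 13 of the 32 had an unadjusted p under 0.05, against 15.7% of all genes. That result turned on single arrays: limma called 17 of the 32 genes when Vehicle 1 was left out (37.6% of all genes were called), 15 of them lower on the arrays labelled Dex, and 6 when Vehicle 2 was left out (8.63% of all genes), with the lone vehicle array assumed to vary like the others.

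The arrays labelled E2 were set against those labelled vehicle to ask about the estrogen alone. Here 23 of 32 differences were negative, with a median of -0.086 against -0.018 for all genes, and 0 were called (0% of all genes). A single gene, Ifit3, had an unadjusted p under 0.05, where 3.84% of all genes did. With array number as a block 4 of the 32 did (5.18% of all genes). With slide as a block 22 of 32 differences were positive and the median was 0.038, and within slide 2, which holds Vehicle 3 and 4 and E2 1 and 2, 22 were positive with a median of 0.097 (2 of 32 with an unadjusted p under 0.05, against 8.15% of all genes). Without Vehicle 1 and 2 the median was 0.054. The direction of this comparison thus differed between settings.

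Ifit3, a partner of Ifit1 in binding viral RNA, was at -2.15, -1.68, -2.09 and -2.05 on those labelled vehicle, -2.06, -2.09, -2.12 and -2.13 on those labelled Dex, -2.36, -2.37, -2.21 and -2.11 on those labelled E2, and -2.31, -2.14, -2.16 and -2.15 on those labelled Dex+E2. Vehicle 2 was the highest array, and the rest of the vehicle group overlapped with the E2 group. The difference was -0.27 ± 0.103 (SE) (limma adjusted p = 0.979). Isg15 followed with -0.46 ± 0.24 (SE) (limma adjusted p = 0.979), and its sign turned to 0.044 with slide as a block.

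For the combination, the arrays labelled Dex+E2 were set against those labelled vehicle. Of the 32 differences 27 were negative, with a median of -0.15 against -0.015 for all genes. None was called by limma (0% of all genes), and 6 of the 32 had an unadjusted p under 0.05 against 5.57% of all genes. They were Stat2, Usp18, Ifit1, Isg15, Gbp2 and Trim14. Ifit1 passed the filter through the vehicle label alone, so the choice of genes favours its lower level here. Among the genes described that were well above background on all 16 arrays the median was -0.135. With slide as a block 0 of the 32 had an unadjusted p under 0.05 (5.51% of all genes) and the median was -0.062. With array number as a block 11 of the 32 had an unadjusted p under 0.05 (9.14% of all genes) and the median stayed at -0.15. Without Vehicle 1 and 2 the median was -0.032, with 21 negative. Labels Dex+E2 and vehicle shared no slide, so no value within a slide exists.

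Stat2, a subunit of the factor that binds the ISRE, was at -1.57, -1.403, -1.69 and -1.95 on those labelled vehicle, -1.83, -1.998, -1.799 and -2.05 on those labelled Dex, -1.66, -1.804, -1.74 and -1.87 on those labelled E2, and -1.798, -1.92, -1.99 and -2.19 on those labelled Dex+E2. All 4 arrays labelled Dex+E2 lay below Vehicle 1, 2 and 3, and Vehicle 4 lay among them. The difference was -0.32 ± 0.12 (SE) (limma adjusted p = 0.715), and that of Isg15 was -0.58 ± 0.24 (SE) (limma adjusted p = 0.715). With slide as a block the difference of Isg15 was -0.109 (limma adjusted p = 0.978).

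The last 3 comparisons asked whether adding E2 to Dex, or Dex to E2, made a difference, and whether the 2 agents interact. Dex+E2 minus Dex had 20 negative differences of 32 and a median of -0.018, Dex+E2 minus E2 had 23 negative and a median of -0.059, and the interaction had 20 positive and a median of 0.054. Limma called 0 of the 32 genes in each (0% of all genes). The numbers with an unadjusted p under 0.05 were 0, 1 and 1, against 3.19%, 4.02% and 3.72% of all genes. With array number as a block they were 0, 4 and 2, against 3.8%, 6.73% and 5.04% of all genes. With slide as a block the first of these medians was 0.087 and the second -0.108, with 5 and 2 of the 32 at an unadjusted p under 0.05 (11.8% and 2.58% of all genes). Within slide 3 the first of these medians was 0.061, and within slide 4 the second was -0.039, with 0 called in both (0% of all genes). At an unadjusted p under 0.05 there were 1 of 32 within slide 3 (12.2% of all genes) and 0 of 31 within slide 4 (3.64%).

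Trim14, an adaptor of antiviral signalling at mitochondria, carried the smallest unadjusted p in all 3. It was at -6.39, -6.16, -5.83 and -6.27 on those labelled vehicle, -6.41, -5.75, -6.29 and -6.44 on those labelled Dex, -5.63, -5.74, -5.71 and -5.89 on those labelled E2, and -7.27, -6.84, -6.25 and -6.396 on those labelled Dex+E2. All 4 arrays labelled E2 lay above all 4 labelled Dex+E2, and the difference was -0.95 ± 0.24 (SE) (limma adjusted p = 1). The gene is dim: it was well above background on 1 of 4 arrays labelled Dex+E2 and on 4 labelled E2, and it passed the filter through the E2 label alone, so this separation too is a description. Irf9, the DNA-binding subunit of the factor that binds the ISRE, was at -1.77, -1.63, -1.53 and -1.51 on those labelled vehicle, -1.68, -1.81, -4.02 and -1.54 on those labelled Dex, -1.75, -1.84, -1.74 and -1.69 on those labelled E2, and -1.75, -1.78, -1.699 and -1.71 on those labelled Dex+E2. Its difference between Dex+E2 and Dex, 0.53 ± 0.38 (SE) (limma adjusted p = 1), rests on Dex 3 alone, and without that array it was -0.057. In the interaction Ifi35 followed Trim14, at -0.29 against -0.89 (limma adjusted p = 0.999 for both).

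**Figure D2:**
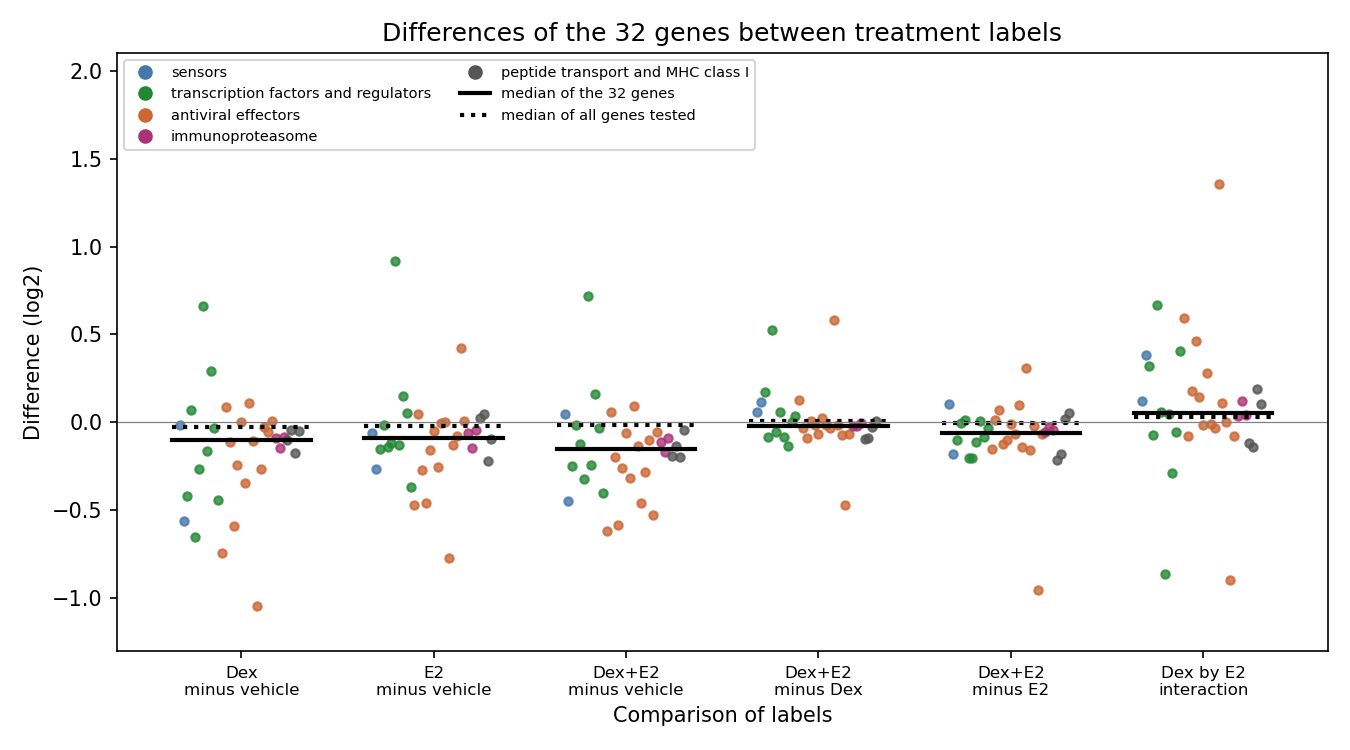
Each point is the log2 difference of a gene in 1 of 6 comparisons between labels, coloured by role, with the median of the 32 genes as a solid line and that of all genes tested as a dotted line. The solid line lies below the dotted one in all comparisons but the interaction, lowest in those with vehicle (-0.10, -0.086 and -0.15), and no point passed the test.

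Leaving out the 4 arrays whose Per1 level goes against the label changed the calls. With 3 arrays a label, limma called 2 of the 32 genes for Dex minus vehicle (2.43% of all genes) and the same 2 for Dex+E2 minus vehicle (2.59% of all genes), Parp14 and Ddx58, both lower than on the arrays labelled vehicle. Parp14 differed by -0.72 ± 0.14 (SE, limma adjusted p = 0.0193) and -0.71 ± 0.14 (SE, limma adjusted p = 0.0195), and Ddx58 by -0.86 ± 0.17 (SE, limma adjusted p = 0.0214) and -0.73 ± 0.17 (SE, limma adjusted p = 0.0468). These are values of the probe used, and a dimmer Parp14 probe went the other way between Per1-high and Per1-low arrays, as given below. In the other 4 comparisons limma called 0 of the 32 genes, where it called 1.93% of all genes for Dex+E2 minus E2 and 0% in the rest. The arrays were chosen by a measured gene, after which the Dex labels and the Per1 level coincide, and Vehicle 1 and 2 make up most of the remaining vehicle group.

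**Figure D3:**
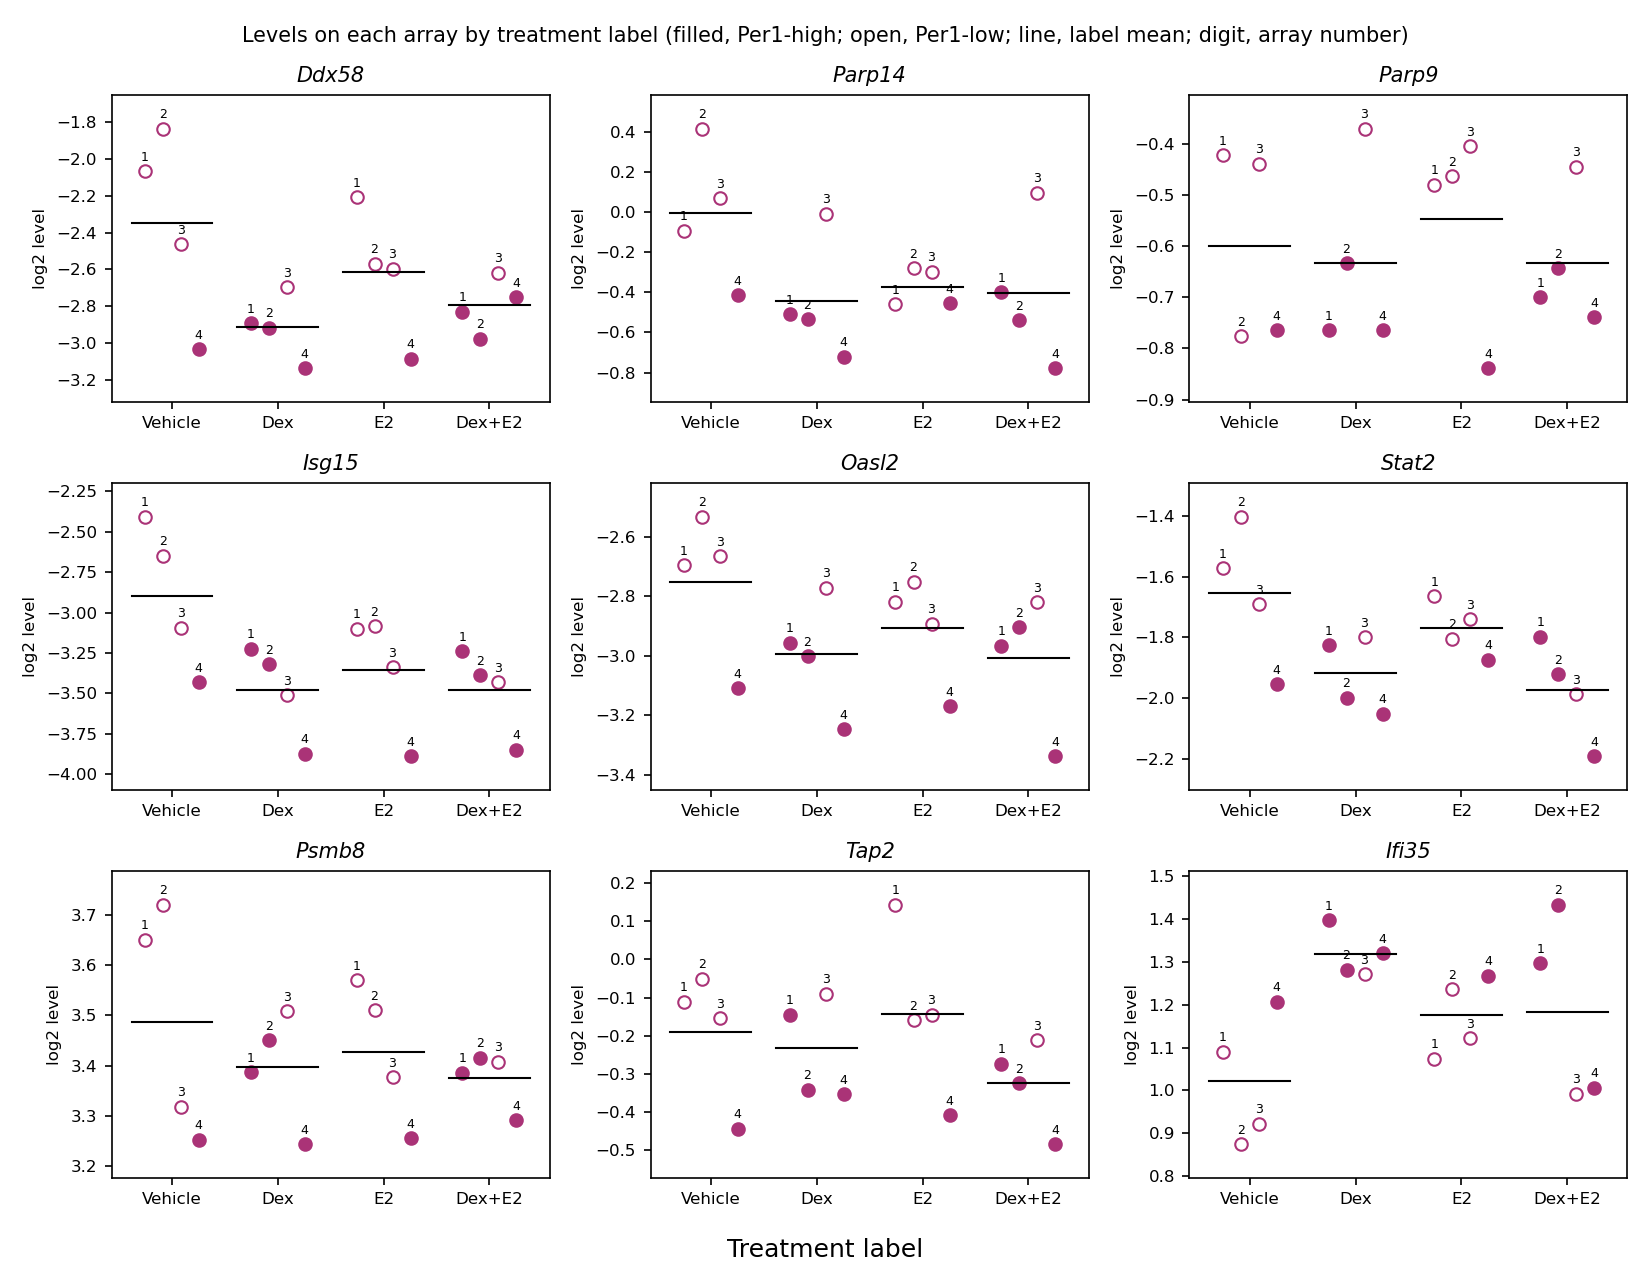
The 9 panels show the log2 level of a gene on each of 16 arrays by treatment label, with array numbers as digits, filled points for Per1-high arrays and lines for label means. In Isg15, Oasl2, Stat2, Psmb8 and Tap2 array 4 is the lowest of its label in every label. Ddx58 and Isg15 have their highest levels on Vehicle 1 and 2.

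A second view keeps label and slide constant. In each label the arrays numbered 3 and 4 shared a slide, as did those numbered 1 and 2, and the odd number took the earlier position in both pairs. The sources used here do not say what the numbers stand for beyond separate experiments. Between arrays 4 and 3, 25 of the 31 genes measured on all 8 arrays had a negative difference, with a median of -0.19 against -0.045 for all genes. Limma, with label as a block, called 1 of the 31, Parp9, where it called 549 of 17619 genes (3.12%). Counted by sign, 13 of the 31 genes (41.9%) were lower on array 4 in 4 of 4 labels, against 15.8% of all genes, and 1 gene, Ifi35, was higher in 4 of 4, against 9.74%. Between arrays 2 and 1 the median was 0.019, limma called 0 of 32 genes (0% of all genes, with 0 of the 32 and 1.11% of all at an unadjusted p under 0.05), 0 genes were lower in 4 of 4 labels (3.36% of all) and 2, Irf1 and Psmb9, were higher (4.25% of all).

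Parp9, a member of the ADP-ribosyltransferase family that pairs with Dtx3l in the interferon response, was at -0.42, -0.78, -0.44 and -0.76 on those labelled vehicle, -0.76, -0.63, -0.37 and -0.76 on those labelled Dex, -0.48, -0.46, -0.404 and -0.84 on those labelled E2, and -0.7, -0.64, -0.45 and -0.74 on those labelled Dex+E2. The differences between arrays 4 and 3 were -0.32, -0.39, -0.44 and -0.29 in the 4 labels, in the same order. Parp9 was lower on array 4 by -0.36 ± 0.06 (SE) (limma adjusted p = 0.0343). The call was lost with no filter on dim probes, with normexp background correction, without a variance trend, and when the arrays labelled Dex, E2 or Dex+E2 were left out, where the limma adjusted p lay between 0.0611 and 0.22.

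The gene with the next smallest unadjusted p was Tap2, a subunit of the transporter that carries peptides to MHC class I, at -0.29, -0.26, -0.26 and -0.27 in the 4 labels and -0.27 ± 0.054 (SE) in the fit (limma adjusted p = 0.0604). Parp14 differed by -0.56 ± 0.12 (SE) (limma adjusted p = 0.0775), Isg15 by -0.42 ± 0.102 (SE) (limma adjusted p = 0.104), Ddx58 by -0.41 ± 0.104 (SE) (limma adjusted p = 0.118) and Eif2ak2, the kinase PKR that halts translation on double-stranded RNA, by -0.26 ± 0.068 (SE) (limma adjusted p = 0.121). The 13 genes lower in 4 of 4 labels were Ddx58, Stat2, Usp18, Parp9, Parp14, Isg15, Oasl2, Eif2ak2, Gbp2, Trim14, Psmb8, Tap1 and Tap2. B2m, the light chain of MHC class I, went both ways with 0.13, -0.11, -0.047 and 0.078, as did H2-K1 with 0.16, -0.16, -0.009 and -0.13.

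**Figure D4:**
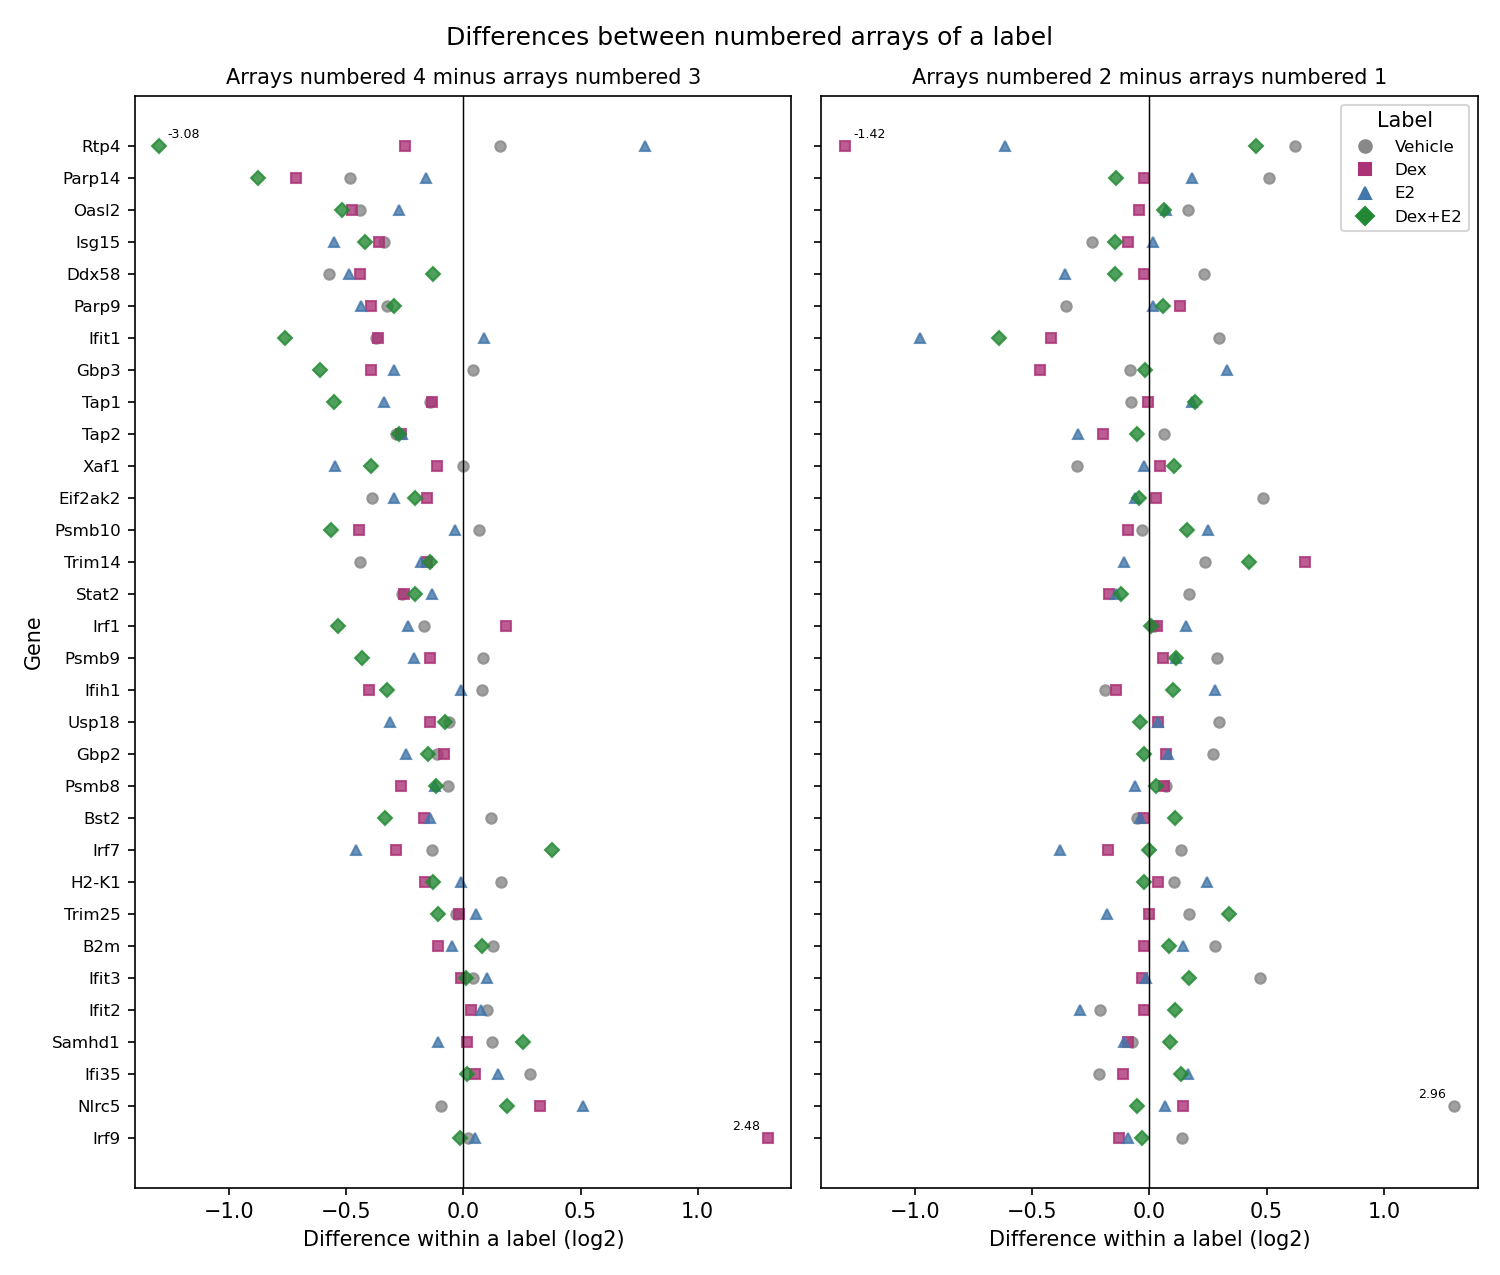
Points are log2 differences within a label between arrays 4 and 3 (left) and between arrays 2 and 1 (right) for 32 genes, with 1 symbol per label and points beyond 1.3 drawn at the edge with their value. On the left 13 genes have all 4 points below 0, and on the right 0 genes do.

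Another view splits the 16 arrays at the widest gap in Per1. The 8 Per1-high arrays (1.75 to 1.995) are array 4 of every label, arrays 1 and 2 labelled Dex, and arrays 1 and 2 labelled Dex+E2. The other 8 are Per1-low (-1.29 to -0.75). The split is by a measured value and not by a treatment, so its values are a description with no test, and it holds arrays 4 and 3 of every label on opposite sides, so it is not independent of the differences just given. The medians of 26 of 32 genes (81.2%) were lower on the Per1-high arrays, against 54.3% of all genes, and 18 (56.2%) were lower by more than 0.1, against 29.2%. The median difference was -0.16, against -0.014 for all genes. Ranges of 2 of the 32 genes did not overlap, both lower on the Per1-high arrays (2.07% of all genes), and 0 were higher without overlap (2.02%).

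Ddx58 was the first of the 2, at -2.698, -2.52 and -1.83 (lowest, median, highest) on the Per1-low arrays and -3.14, -2.95 and -2.75 on the Per1-high arrays. Oasl2, an oligoadenylate synthetase-like antiviral gene that is named here after its values were seen, was the other, at -2.697, -2.53, -2.67 and -3.11 on those labelled vehicle, -2.96, -3.002, -2.77 and -3.25 on those labelled Dex, -2.82, -2.75, -2.89 and -3.17 on those labelled E2, and -2.97, -2.91, -2.82 and -3.34 on those labelled Dex+E2. Its highest Per1-high level was -2.91 and its lowest Per1-low level -2.89, so the gap is narrow, and with quantile normalization or the deposited log2 table Ddx58 was the only one of the 32 without overlap. Without Dex 3 there were 4, with Irf1 and Gbp2 in addition, all lower on the Per1-high arrays.

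Among the regulators Parp14, which modifies proteins with ADP-ribose, had the largest difference of medians, at -0.47 for the probe used. A dimmer Parp14 probe, well above background on 11 arrays, went the other way at 0.14. The probe used was at -0.091, 0.42, 0.07 and -0.42 on those labelled vehicle, -0.51, -0.53, -0.008 and -0.72 on those labelled Dex, -0.46, -0.28, -0.296 and -0.45 on those labelled E2, and -0.399, -0.54, 0.097 and -0.78 on those labelled Dex+E2. The Per1-high arrays ran from -0.78 to -0.40 and the Per1-low arrays from -0.46 to 0.42, so that the sets overlap through E2 1 alone. Irf1 had medians of 2.74 and 2.502 on the Per1-low and Per1-high arrays, Stat2 of -1.72 and -1.94, Parp9 of -0.44 and -0.75 and Usp18, a protease that removes Isg15, of -1.42 and -1.57. Irf7, a master regulator of type I interferon genes, differed by less, with -4.86 and -4.95, as did Irf9 with -1.74 and -1.7 and Nlrc5, the transactivator of MHC class I genes, with -5.04 and -5.06. Ifi35 went the other way with 1.08 and 1.29, the highest difference of the 32 genes at 0.21.

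Among the 14 antiviral effectors 10 had a lower median on the Per1-high arrays. Ifit1 was the first in size, at -6.93, -6.01 and -5.56 (lowest, median, highest) on the Per1-low arrays and -6.8, -6.47 and -5.93 on the Per1-high arrays, but it was well above background on 3 of the Per1-high and 6 of the Per1-low arrays. Trim14 came next with -5.99 and -6.403, well above background on 5 arrays of each set, then Isg15 with -3.097 and -3.41. Smaller differences were seen in Eif2ak2 (-0.64 and -0.88), Gbp2 (-1.61 and -1.84), Gbp3 (-1.67 and -1.85) and the pro-apoptotic gene Xaf1 (-2.46 and -2.64). Near-equal medians were found for Ifit2 (-0.62 and -0.62), Ifit3 (-2.15 and -2.12) and Trim25, a ubiquitin ligase that acts on RIG-I (1.602 and 1.61). For Ifit2 and Trim25 this held for the probe used only. The other Ifit2 probe and the other Trim25 probe, each well above background on 16 arrays, differed by 0.199 and 0.121. Bst2, the tetherin that holds virus particles at the cell surface, had 2.698 and 2.74 and Samhd1, which depletes nucleotides needed by viruses, 1.54 and 1.65. Rtp4 ranged widely, from -6.98 to -3.90, and was well above background on 8 arrays.

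In the antigen presentation branch, the immunoproteasome subunit Psmb8, whose promoter holds the GAS match shown above, was at 3.65, 3.72, 3.32 and 3.25 on those labelled vehicle, 3.39, 3.45, 3.51 and 3.24 on those labelled Dex, 3.57, 3.51, 3.38 and 3.26 on those labelled E2, and 3.39, 3.42, 3.41 and 3.29 on those labelled Dex+E2. The sets overlap, with medians of 3.51 and 3.34 on the Per1-low and Per1-high arrays, and the highest levels were again on Vehicle 1 and 2. Psmb9 had medians of -0.007 and -0.093 and Psmb10 of 4.55 and 4.46. Tap2 led the peptide transport and class I genes and was at -0.11, -0.05, -0.15 and -0.44 on those labelled vehicle, -0.15, -0.34, -0.09 and -0.35 on those labelled Dex, 0.14, -0.16, -0.15 and -0.41 on those labelled E2, and -0.27, -0.32, -0.21 and -0.49 on those labelled Dex+E2. Its partner Tap1 had medians of -1.39 and -1.56. B2m and H2-K1 had near-equal medians, 4.83 and 4.83 and 5.78 and 5.75, with differences of -0.002 and -0.034 against -0.22 for Tap2 and -0.17 for Tap1. For H2-K1 this held for the probe used only. Its other probes, each well above background on 16 arrays, differed by -0.114 and -0.162, and the other B2m probe by -0.014.

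**Figure D5:**
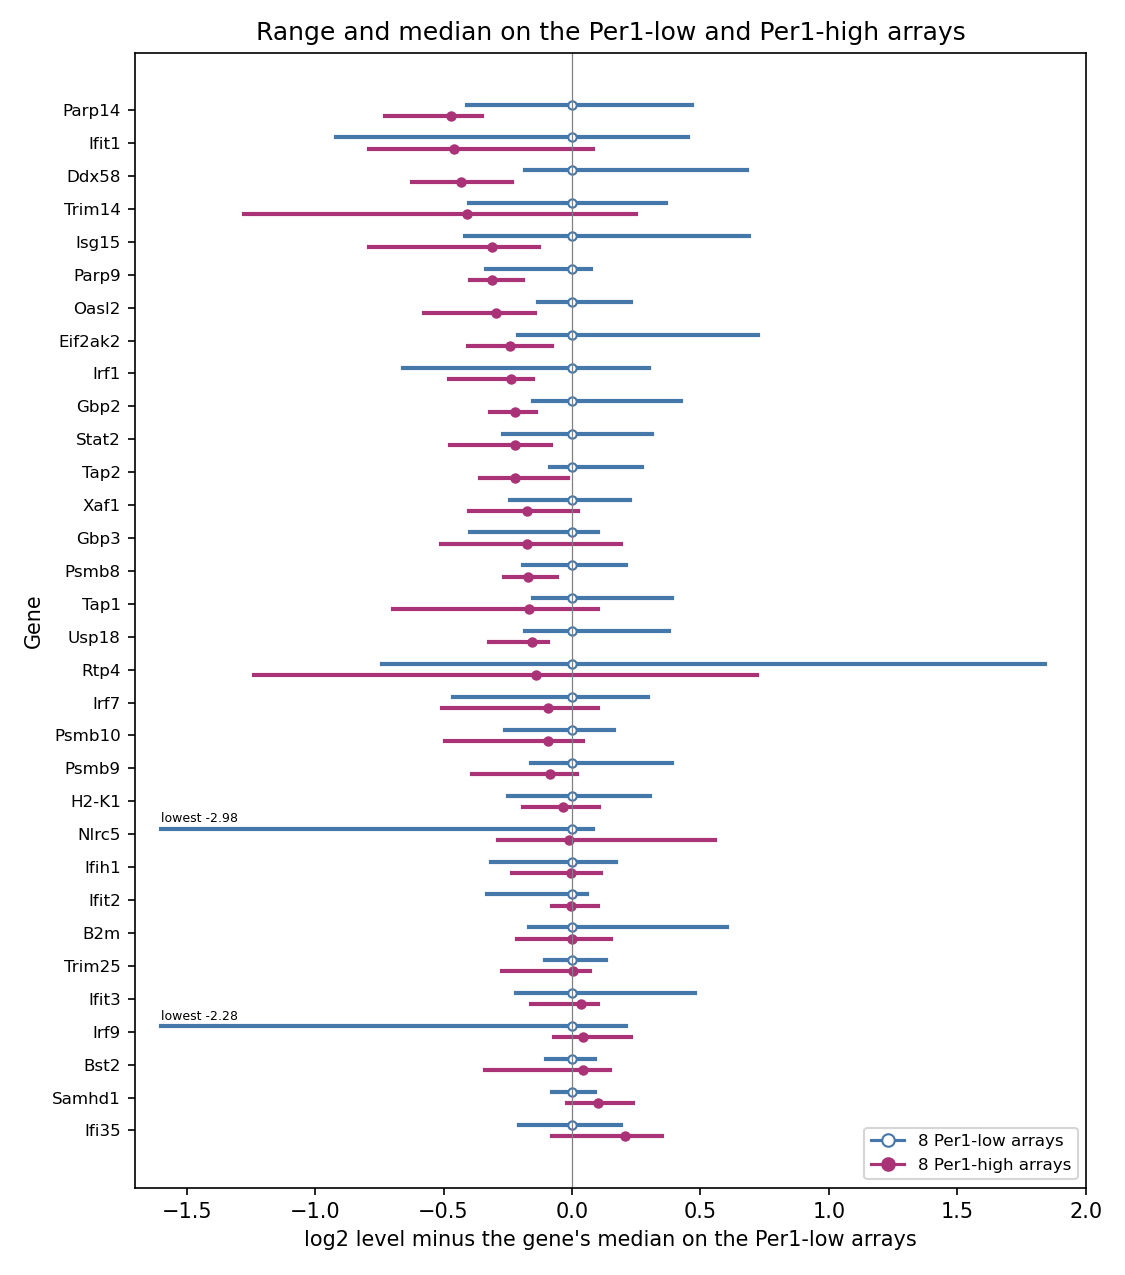
Lines show the range and points the median of the log2 level on 8 Per1-low (open points) and 8 Per1-high arrays (filled points) for 32 genes, relative to the gene's Per1-low median. Ddx58 and Oasl2 have ranges that do not overlap, and Parp14, Ifit1 and Ddx58 have the lowest Per1-high medians.

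The rest of the pathway was described from 3 further lists. In the list of ligands, sensors and signalling 25 of 32 genes were tested. The interferon genes Ifnb1, Ifna4 and Ifng were well above background on 0 arrays, and so were Tlr4 and Ikbke. Limma called 0 of the 25 in the 6 label comparisons (0% of all genes), where the smallest unadjusted p belonged to the phosphatase gene Ptpn6, which differed between E2 and vehicle by 0.34 ± 0.13 (SE, limma adjusted p = 0.979). Between arrays 4 and 3 it called 3 of 25, all lower on array 4, beside 3.12% of all genes. They were the interferon gamma receptor chain Ifngr2 by -0.41 ± 0.064 (SE, limma adjusted p = 0.0285), the transcription factor Irf5 by -0.60 ± 0.073 (SE, limma adjusted p = 0.0123) and Socs1, an inhibitor of JAK signalling, by -0.57 ± 0.086 (SE, limma adjusted p = 0.0251). Of the 25, 6 were lower on the Per1-high arrays without overlap, the 3 just named with Ifnar1, Il6 and Jak2, against 2.07% of all genes, and 0 were higher. Il6, an inflammatory cytokine, had the largest difference of medians, with -4.501, -4.36 and -3.93 (lowest, median, highest) on the Per1-low arrays and -5.49, -4.89 and -4.66 on the Per1-high arrays. Socs1 followed with medians of -0.998 and -1.49.

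In the list of other interferon-stimulated genes 34 of 50 were tested. Cxcl10, a chemokine that draws T cells and is induced by interferon gamma, had the largest difference between the sets, at 0.006, 0.26 and 0.55 (lowest, median, highest) on the Per1-low arrays and -1.08, -0.704 and -0.35 on the Per1-high arrays. Between arrays 4 and 3 it was lower by -1.17 ± 0.10 (SE, limma adjusted p = 0.00349). Mov10, an RNA helicase, was the only other gene of this list called there, at -0.48 ± 0.073 (SE, limma adjusted p = 0.0263), so limma called 2 of 32, beside 3.12% of all genes. Both had lower ranges on the Per1-high arrays without overlap (2.07% of all genes), and the median of the list was -0.067, against -0.014 for all genes. In the label comparisons 0 of 34 were called (0% of all genes), and Ifitm1, which blocks virus entry, had the smallest unadjusted p, with 0.42 ± 0.13 (SE) between Dex+E2 and Dex (limma adjusted p = 1).

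In the list of other antigen presentation genes 18 of 24 were tested, and limma called 0 of 18 in the 6 label comparisons (0% of all genes) and 0 between arrays 4 and 3 (3.12% of all genes). The class II transactivator Ciita and the class II gene H2-Aa were well above background on 0 arrays. Another class II gene, H2-Ab1, was well above background on 16 arrays. Rfxank, a factor of class II promoters, had medians of -0.36 and -0.049 on the Per1-low and Per1-high arrays and the invariant chain gene Cd74 of 0.035 and 0.24, both higher on the Per1-high arrays with overlapping ranges. H2-Q4 had the smallest unadjusted p, with -0.26 ± 0.10 (SE) between E2 and vehicle (limma adjusted p = 0.979).

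Leukocyte markers are given beside these results because leukocytes also express interferon and class I genes. Of 11 markers 5 were tested and 0 were called in the label comparisons or between arrays 4 and 3, and their summed linear level, in units of the array's 75th percentile, lay between 0.203 and 0.31 on the Per1-low and between 0.179 and 0.234 on the Per1-high arrays. By label the sum lay between 0.203 and 0.225 (vehicle), 0.179 and 0.226 (Dex), 0.215 and 0.284 (E2), and 0.202 and 0.31 (Dex+E2). Of 8 fibroblast markers 5 were tested and 0 were called. Of 7 endothelial markers 2 were tested, and Kdr, a receptor for vascular endothelial growth factor, was higher on array 4 than on array 3 by 0.78 ± 0.066 (SE, limma adjusted p = 0.0034) and higher on the Per1-high arrays without overlap (2.02% of all genes). The other, Vwf, which encodes von Willebrand factor, differed by -0.39 ± 0.193 (SE, limma adjusted p = 0.399) between arrays 4 and 3 and by -0.29 between the medians of the Per1 sets, with overlapping ranges, while Pecam1, Cdh5 and Tie1 were well above background on 0 arrays. The part of the markers that were detected in the results was not tested.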

How the data were processed

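Cy3-labelled cRNA of 16 HL-1 samples was hybridised to 1-colour Agilent arrays and quantified with Agilent Feature Extraction 12, per the submitters' processing notes. The deposited scanner files hold a background-subtracted processed intensity per spot, per the file headers. The authors' deposited table of log2 values, whose method the sources used here do not give, served as an alternative. Control and flagged spots were left out, spots of a probe averaged, and the level was log2 intensity minus the 75th percentile of the array. Accessions matched the RefSeq table of GRCm38.p6 for 28223 of 41174 probes. A probe was kept when well above background, in at least 50% of its spots, on all 4 arrays of a label.

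Fits used limma 3.58.1 in R 4.3.3 (lmFit, then eBayes with trend) over all genes, two-sided. Genes were called where the p adjusted by Benjamini-Hochberg was under 0.05. The fits were tested on simulated data with independent noise and the same spread for every gene. That test does not cover differences between slides or array numbers. Recovery of the changed genes was not required of the fit within a slide. The sources state 4 independent experiments but not how array numbers map to them, and the number of arrays limits the precision. Alternatives were the replicate and slide blocks, no or a stricter filter, normexp, quantile normalization, the deposited table, the mean of probes, no trend and arrays left out. The files hold no mean signal, so normexp used the median signal. The members, lists and tests were chosen with earlier results of these data known. Values on every array are given for the member of each role with the largest difference of medians between the Per1 sets, the 2 with the smallest unadjusted p of each label comparison and every member called, and 3 genes of each further list are named with any that were called.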

Additional observations from a re-analysis of the deposited data

Results flagged for a closer look

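A level that stood apart from the other 3 arrays of its label, by Dixon's gap over range, was found in 11 of 127 sets of 4 arrays, where chance gives about 1 set in 20. The widest gaps in log2 units belonged to Irf9 on Dex 3, at -4.02 against -1.81 to -1.54 on the other Dex arrays, and to Nlrc5 on Vehicle 1, at -8.02 against -5.08 to -4.99. The Irf9 level is that of the probe used, and a second, dimmer Irf9 probe was well above background on 16 arrays. The mean difference between arrays 4 and 3 was -0.157 for this second probe and 0.633 for the probe used. Nlrc5 also stood apart on E2 4, at -4.49. On E2 4, Usp18 was low at -1.74, and on Dex+E2 1 Ifit3 was low at -2.31. Bst2 was low on Dex 4 at 2.60, and Rtp4 was high on Dex 1 at -5.02, where most Dex arrays did not measure it above background. On Vehicle 2, Xaf1 was low at -2.70 and Trim25 high at 1.74. H2-K1 was high on E2 2 at 5.92 and low on Dex+E2 4 at 5.68.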

How the results depend on the processing

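The count of 0 called genes held in all 6 label comparisons under every alternative run with other filters, normalizations, blocks or 1 array left out, and in the 3 comparisons with vehicle without Vehicle 1 and 2. It became 2 for Dex and for Dex+E2 minus vehicle without the 4 arrays whose Per1 level goes against the label, a choice made after seeing the data, where Irf9 also turned to -0.07 (Dex+E2 minus Dex). Same-numbered arrays were alike to a varying degree. Correlations of deviations between them ran from -0.156 to 0.463 (0.107 to 0.448 among arrays numbered 4). Of 16 arrays, 9 correlated best with their own number in another label. With the replicate block limma called 0 of the 32 genes in all 6 comparisons, and 2550 genes had an unadjusted p under 0.05 for Dex minus vehicle against 1933 without it. The median for E2 minus vehicle moved to 0.038 with slide as a block, where Isg15 turned to 0.044, and to 0.054 without Vehicle 1 and 2, while that for Dex+E2 minus vehicle moved to -0.062 and -0.032, and that for Dex+E2 minus Dex to 0.087 with slide as a block.

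Normexp background correction left the arrays on unequal scales: the 10th percentile of level ran from -2.98 to -0.31 across arrays, against -4.97 to -4.56 in the reported values, and the median of all genes shifted to 0.12 for E2 minus vehicle. Under it the medians were 0.36 (E2 minus vehicle), 0.14 (Dex+E2 minus vehicle), 0.22 (Dex+E2 minus Dex), -0.20 (Dex+E2 minus E2), -0.15 (interaction) and -0.33 (Per1 sets). Signs turned for Ifit1 (0.052, Dex), Ifit3 (0.70, E2), Isg15 (1.02, E2, and 0.53, Dex+E2), Stat2 (0.27, Dex+E2) and Trim14 (0.78, Dex+E2 minus Dex). Within slide 4 it called 26 of the genes described and 84.5% of all genes.

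Parp9 between arrays 4 and 3 was -0.36 in the report, and the count of 1 became 0 with no filter on dim probes and without a trend, and 2 with the mean of all probes, where Tap2 joined Parp9. Leaving out both arrays of a label gave 0 to 1. The count of genes without overlap between the Per1 sets became 1 with normexp (Parp14, while Ddx58 overlapped), and 1 with quantile normalization and the deposited table (Ddx58). It was 2 to 4 with each array left out. Irf9 for Dex+E2 minus Dex ran from -0.057 (without Dex 3) to 0.77 with each array left out. Leaving out an array of slide 1 gave 0 to 17 called. Unless stated, the cause was not tested.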
